A study of Mus musculus with 4 samples.

Results

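The 10 genes described here encode immune checkpoint and costimulatory receptors (Pdcd1, Ctla4, Icos, Tigit, Havcr2 and Lag3) and ligands of some of them (Cd274, Pdcd1lg2, Cd80 and Cd86). They were taken by name, and all 10 were found among the 32285 genes of the count matrices. They were measured in single cells of the lungs of C57BL/6 wild-type male mice aged 6 to 7 weeks. All mice received 1 intratracheal injection, which carried either the carrier PBS alone or 200 µg of E. coli lipopolysaccharide (LPS), the outer membrane component of Gram-negative bacteria used to induce acute lung injury. In 2 of the 4 groups the thorax was irradiated with 1 Gy of X-rays on the following day (low-dose radiotherapy, abbreviated RT here). The groups were PBS, PBS+RT, LPS and LPS+RT, each represented by 1 library from lungs taken 48 h after the injection, which was 24 h after irradiation in the irradiated groups. The lungs were dissociated and the mononuclear layer of a density gradient was loaded, so the cells are those that this layer retained. How many animals went into a library is not given in the sources used here. With 1 library per group no difference could be tested against the spread between animals, and every interval below is a 95% interval that covers counting error only.

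PD-1 (Pdcd1), CTLA-4 (Ctla4), TIGIT (Tigit), TIM-3 (Havcr2) and LAG-3 (Lag3) are receptors that restrain activated lymphocytes, and ICOS (Icos) is a costimulatory receptor of the CD28 family. PD-L1 (Cd274) and PD-L2 (Pdcd1lg2) are the ligands of PD-1, and interferon-gamma is a known inducer of PD-L1. CD80 and CD86 on antigen-presenting cells bind both CD28, which costimulates T cells, and CTLA-4, which competes for them.

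The ligand genes Cd274 (ENSMUSG00000016496; mm10, chr19:29367455-29388095, plus strand) and Pdcd1lg2 (ENSMUSG00000016498; chr19:29410919-29471161, plus strand) are neighbours, 22823 bases apart. The receptor genes Ctla4 (chr1:60887000-60915832, plus strand) and Icos (chr1:60977927-61000320, plus strand) are neighbours as well, 62094 bases apart. Promoters were available for 7 of the 10 genes, and those of the 2 PD-1 ligands are shown because these neighbouring genes differed in neutrophils, where LPS+RT was below LPS for Cd274 and not for Pdcd1lg2. The 250 bases upstream of each RefSeq start (GRCm38.p6, plus strand, chr19:29367188-29367437 for Cd274 and chr19:29410669-29410918 for Pdcd1lg2) are printed 5′ to 3′, and capitals mark the match to the NF-kB site.
Cd274: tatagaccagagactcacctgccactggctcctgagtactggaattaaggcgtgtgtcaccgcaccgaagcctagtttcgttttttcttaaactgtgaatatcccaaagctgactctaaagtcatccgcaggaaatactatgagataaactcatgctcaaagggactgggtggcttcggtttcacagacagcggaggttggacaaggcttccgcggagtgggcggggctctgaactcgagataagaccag
Pdcd1lg2: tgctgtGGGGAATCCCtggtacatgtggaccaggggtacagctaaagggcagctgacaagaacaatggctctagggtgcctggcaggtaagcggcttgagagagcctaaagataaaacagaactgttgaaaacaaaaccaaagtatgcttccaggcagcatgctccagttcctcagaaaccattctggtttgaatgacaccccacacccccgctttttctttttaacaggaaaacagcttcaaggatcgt
Of the motifs searched on both strands, 2 are reported here, an interferon response element (GAAA, any 2 bases, GAAA) and the NF-kB site. The Pdcd1lg2 window held 1 NF-kB site, whose first base lies 244 bases before the start, and the Cd274 window held neither of these. The windows of Pdcd1, Ctla4, Havcr2, Tigit and Cd80 held neither as well. Of these genes, Havcr2 and Cd80 were, like Pdcd1lg2, not called lower in LPS+RT than in LPS in neutrophils. Of 32851 mouse promoter windows of this length, 2.98% held the interferon response element and 7.25% the NF-kB site. A match is a description of the letters only, and its part in any level was not tested.

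The libraries held 6221 to 9714 cells after filtering, with medians of 4285.5 to 8572 UMIs (counted molecules) per cell. PBS+RT had the fewest cells and the highest median. Cells were clustered without the 10 genes and named by marker genes. Class names such as neutrophil therefore stand for cells that resemble that type. In PBS and PBS+RT there were 73 and 109 neutrophils, in LPS and LPS+RT 3225 and 652, and inflammatory macrophages numbered 0, 1, 566 and 126 in that order. RNA of neutrophils was found in other classes: the summed level of 8 neutrophil markers in general capillary endothelium was 89.6, 65.3, 721 and 159 CPM (UMIs of a gene per 1000000 UMIs of a class in a library) in the same order. Values in cells with no UMI of those markers are given beside several results, where at least 10 such cells were left. Fewer were left in LPS for regulatory T cells, classical monocytes, alveolar macrophages, and large vessel and lymphatic endothelium. In PBS+RT fewer were left for classical monocytes. Cells with none of these UMIs were not matched in depth to their class, and the choice favours cells with few UMIs. Levels are given in CPM and are not compared between genes because the libraries count 3′ ends. A gene was called higher or lower in a class where the 2 libraries differed at least 2-fold, with at least 20 UMIs in the pair and at least 20 cells in each library.

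With LPS alone, the PD-1 ligand gene Cd274 was at least 2-fold higher in 13 of 15 classes, from neutrophils to capillary endothelium, and Ctla4 was higher in all 5 T and natural killer classes. Of all genes, 5.72% (natural killer cells) to 21.7% (regulatory T cells) were higher in those 5 classes. The Ctla4 calls in regulatory T cells, CD4+ T cells and natural killer cells were not kept under some alternatives. With LPS followed by RT, Cd274 was lower than with LPS alone in 11 of 17 classes. With RT after PBS, Cd80 and Cd86 were higher in classical monocytes and interstitial macrophages. Both calls in interstitial macrophages fell inside 2-fold under some alternatives. In LPS against PBS, 36 of the 80 gene-class pairs measured were at least 2-fold higher and 2 were lower, where 8.42% of all 132550 gene-class pairs were higher and 7.21% lower. The median log2 ratio of the 80 pairs was 0.85, against 0.03 over all pairs. In regulatory T cells 5 of the 6 genes measured were higher (21.7% of all genes) and in neutrophils 4 of 7 (15.4%). The regulatory T cell calls, from 22 and 25 cells, were Ctla4, Icos and the ligand genes Cd274, Pdcd1lg2 and Cd86. The part of RNA from other cells in these ligand counts was not tested. In LPS+RT against PBS+RT, 13 of 76 pairs were higher and 14 lower (5.97% and 6.93% of all pairs), with a median log2 ratio of 0.06 against -0.10. Scaling by the median ratio of genes gave 16 higher and 10 lower, and centring on genes of similar span 14 and 10. In PBS+RT against PBS, 12 of 65 pairs were higher and 3 lower (7.21% and 4.96% of all pairs), with a median of 0.42 against 0.06. The same 2 scalings gave 8 higher and 5 lower, and 11 and 6. All 3 genes measured in classical monocytes (8.3% of all genes) and 3 of 4 in interstitial macrophages (9.18%) were higher. In LPS+RT against LPS, 3 of 94 pairs were higher and 23 lower (4.33% and 5.92% of all pairs), with a median of -0.48 against -0.06. The 4 comparisons share libraries, so each is described by its own values. Of the calls, 24 of 38, 10 of 27, 6 of 15 and 10 of 26 were kept under every alternative processing that gave a value, in the order of the comparisons above.

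**Figure D1:**
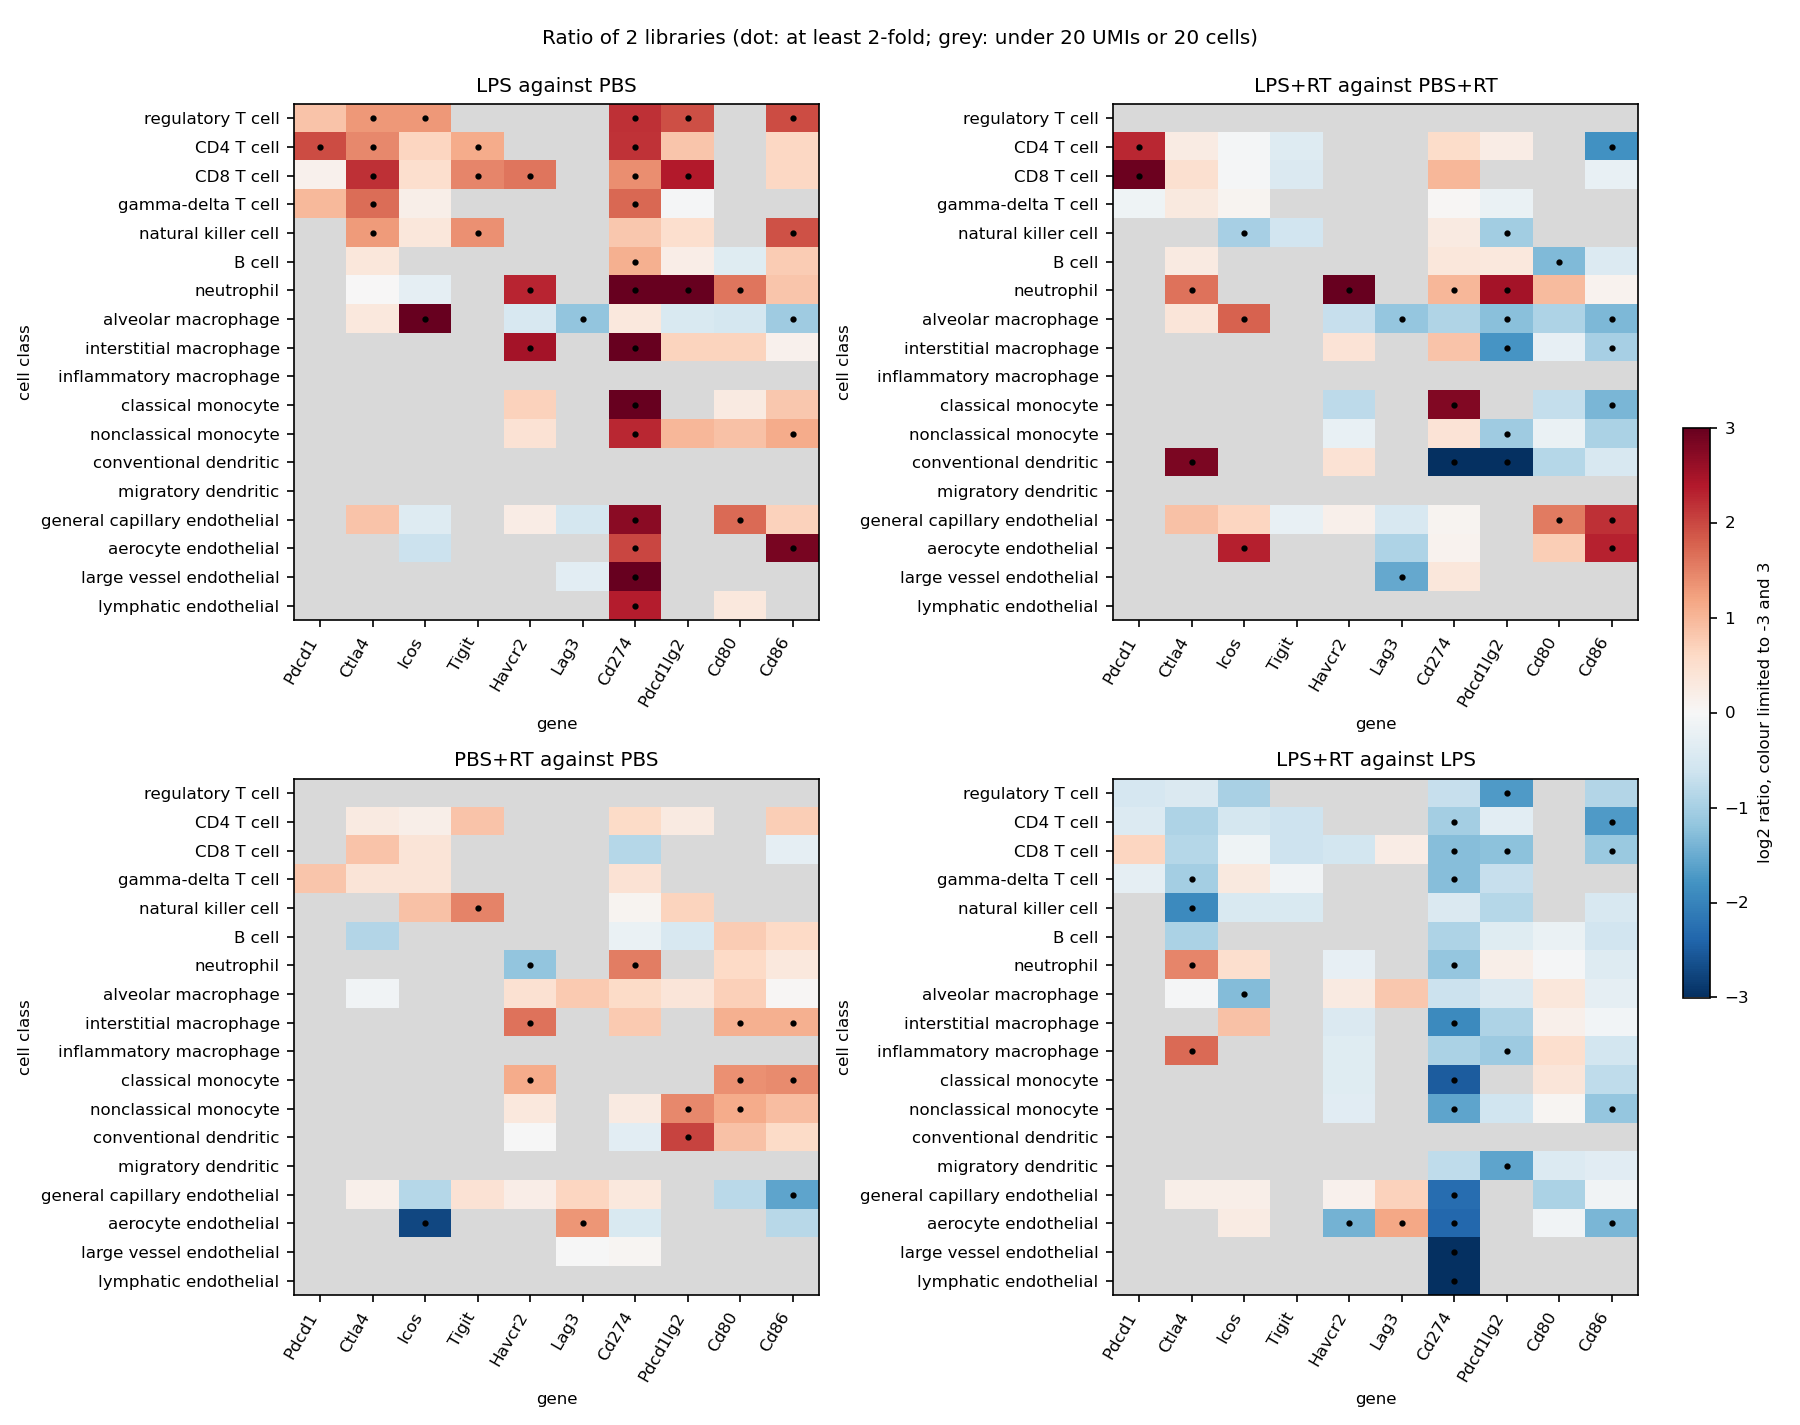
Log2 ratio of 2 libraries for each gene (columns) and cell class (rows), 1 panel per comparison, with a dot at a ratio of at least 2-fold and grey where cells or UMIs were too few. The Cd274 column is red in every measured class of LPS against PBS and blue in every measured class of LPS+RT against LPS.

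Ctla4 (ENSMUSG00000026011), the inhibitory receptor that competes with CD28 for CD80 and CD86, was highest in regulatory T cells and was higher with LPS in all T cell classes. In regulatory T cells it stood at 1171 CPM in PBS (interval 1027 to 1330, 22 cells), 2874 CPM in LPS (2593 to 3176, 25 cells) and 2122 CPM in LPS+RT (1926 to 2332, 36 cells). The 13 such cells of PBS+RT held 1554 CPM and entered no ratio. The level in LPS was 2.45-fold that in PBS (2.08 to 2.90), and the level in LPS+RT was 0.738-fold that in LPS (0.642 to 0.849), which is inside the 2-fold limit. At least 1 Ctla4 UMI was found in 95.5% of the regulatory T cells of PBS (Clopper-Pearson interval 77.2% to 99.9%) and in 96% of those of LPS (79.6% to 99.9%). The share of positive cells was thus near its ceiling in both libraries, and the difference lay in UMIs per cell. This call rests on few cells and on how they were named: the log2 ratio of 1.30 became -0.11 with each cell named by its own marker score and 0.25 with doublets kept.

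In other CD4+ T cells Ctla4 stood at 116 CPM in PBS, 141 CPM in PBS+RT, 313 CPM in LPS and 165 CPM in LPS+RT, so that LPS alone was apart from the other 3. The ratio of LPS to PBS was 2.71 (2.25 to 3.27). In the CD4+ T cells with no neutrophil-marker UMI the levels were 101, 135, 183 (147 to 225) and 169 CPM (146 to 195) in PBS, PBS+RT, LPS and LPS+RT. Among those cells LPS was 1.81-fold PBS (1.35 to 2.42) and was not apart from LPS+RT. In CD8+ T cells, the cytotoxic class, Ctla4 was 33.8 CPM in PBS, 61.0 CPM in PBS+RT, 154 CPM in LPS and 84.7 CPM in LPS+RT. The LPS to PBS ratio of 4.56 (3.11 to 6.95) in CD8+ T cells was kept under every alternative, and it was 7.09 in cells with no neutrophil-marker UMI. In gamma-delta T cells, an innate-like class that can make IL-17, the levels were 93.6, 121, 301 and 150 CPM in PBS, PBS+RT, LPS and LPS+RT, with LPS 3.21-fold above PBS. A Ctla4 UMI was found in 46.7% of the CD8+ T cells of LPS (40.3% to 53.2%) and in 19.5% of those of PBS (11.8% to 29.4%). With every cell thinned to 2000 UMIs the shares were 22.5% and 2.35%. The share in general capillary endothelium, which should lack the gene, was 0.552% in PBS to 1.06% in PBS+RT.

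The CD4+ and CD8+ classes were held by different clusters in the libraries. Most CD4+ T cells of PBS (93 of 171) lay in a cluster led by Pdlim4 and Igfbp4, and the largest group of LPS (85 of 179) lay in one led by Iigp1 and Ndrg3. A CD8+ cluster of 47 LPS cells and 3 LPS+RT cells was led by Ifng, Il2ra and Xcl1 among others, and held Ctla4 at 349 CPM in LPS. A natural killer cluster of 57 LPS cells and 1 LPS+RT cell, led by Xcl1, Cxcl10 and Ifng, held Ctla4 at 90.3 CPM in LPS. Natural killer cells as a whole held Ctla4 at 9.08 CPM in PBS, 21.9 CPM in LPS and 5.85 CPM in LPS+RT. None of the 132 natural killer cells of PBS+RT held a Ctla4 UMI, which allows a level of up to 3.3 CPM at 3 counts. Outside lymphocytes Ctla4 was 4.49 CPM in LPS and 12.3 CPM in LPS+RT in neutrophils, whose summed T cell markers were 26.9 and 52 CPM. In conventional dendritic cells it was 5.53 CPM in PBS+RT and 39.1 CPM in LPS+RT, beside T cell markers of 8.29 and 95.4 CPM. The part of T cell RNA in these values was not tested.

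Icos (ENSMUSG00000026009), the costimulatory receptor encoded beside Ctla4, was highest in gamma-delta and regulatory T cells, whose levels over libraries overlapped. Its level in gamma-delta T cells was 688 CPM in PBS, 901 CPM in PBS+RT, 783 CPM in LPS and 960 CPM in LPS+RT. No comparison passed 2-fold there. In regulatory T cells it was 625 CPM in PBS (521 to 743), 1542 CPM in LPS (1338 to 1767) and 781 CPM in LPS+RT (664 to 912). The LPS to PBS ratio of 2.47 (1.97 to 3.10) was inside 2-fold when each cell weighed the same (log2 0.62), with each cell named by its own marker score (0.23) and with doublets kept (0.14). In CD4+ T cells Icos was 263, 295, 409 and 283 CPM in PBS, PBS+RT, LPS and LPS+RT, and the highest ratio to PBS was 1.56. CD8+ T cells ranged from 132 to 186 CPM. The calls for Icos outside lymphocytes (alveolar macrophages and aerocytes) concern levels of 0.298 to 5.00 CPM, beside 1.21 to 2.20 CPM in general capillary endothelium. The 18 UMIs of the LPS alveolar macrophages lay in 2 cells, and the 23 UMIs of the PBS aerocytes in 9 of 737 cells.

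Pdcd1 (ENSMUSG00000026285; chr1:94038305-94052553, minus strand), the receptor for both PD-1 ligands, was found mostly in T cells and innate lymphoid cells, and it was sparse. General capillary endothelium, as background, held 0 to 0.425 CPM. Innate lymphoid cells held 76.8, 153, 195 and 65.3 CPM in PBS, PBS+RT, LPS and LPS+RT, from 10 to 21 cells each. A cluster of the T and natural killer pool that carries no class name held 112 CPM in PBS (20 UMIs, 21 cells) and 0 in the 20 cells of LPS+RT. In regulatory T cells Pdcd1 was 54.1 CPM in PBS, 97.3 CPM in LPS and 68.8 CPM in LPS+RT, with intervals that overlap. Gamma-delta T cells held 39.6 CPM in PBS, 70.9 CPM in PBS+RT, 77.6 CPM in LPS and 64.6 CPM in LPS+RT, and no ratio passed 2-fold. In those gamma-delta T cells with no neutrophil-marker UMI, PBS held 43.9 CPM (21.9 to 78.6, 27 cells) and LPS 158 CPM (101 to 235, 16 cells), a ratio of 3.59 (1.69 to 8.11). CD4+ T cells held 8.57 CPM in PBS (4.43 to 15), 5.20 CPM in PBS+RT (1.91 to 11.3), 33.1 CPM in LPS (24.0 to 44.6) and 24.9 CPM in LPS+RT (17.8 to 33.9). Both LPS libraries therefore lay above both PBS libraries, 3.87-fold (2.00 to 8.06) without RT and 4.78-fold (2.01 to 13.8) with RT. The 12 UMIs of PBS lay in 1.17% of its CD4+ T cells (0.142% to 4.16%) and the 43 UMIs of LPS in 9.5% (5.63% to 14.8%), so a few cells carry these counts. Of the CD4+ UMIs, 42 of 43 in LPS and 39 of 40 in LPS+RT came from 1 cluster led by Tbc1d4, Maf and Ccr4, which held 50 and 54 cells there and 19 and 21 cells in PBS and PBS+RT. In CD4+ T cells with no neutrophil-marker UMI the LPS to PBS ratio was 2.22 (0.872 to 5.64), from 11 UMIs in each library. With each cell named by its own marker score the LPS to PBS log2 ratio of 1.95 became 0.88. In CD8+ T cells Pdcd1 was 15.7, 3.48, 17.1 and 26.9 CPM in PBS, PBS+RT, LPS and LPS+RT, and the 7.72-fold ratio of LPS+RT to PBS+RT rests on 2 UMIs in PBS+RT (interval 1.94 to 67.0). That log2 ratio of 2.95 also became 0.88 with each cell named by its own score.

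Tigit (ENSMUSG00000071552; chr16:43648867-43664146, minus strand), an inhibitory receptor of T and natural killer cells, was lowest in the PBS library in natural killer cells. Its level there was 19.3 CPM in PBS (11.2 to 30.9), 53.9 CPM in PBS+RT (39.9 to 71.3), 49.9 CPM in LPS (41.4 to 59.7) and 36.4 CPM in LPS+RT (27.5 to 47.3). PBS+RT was 2.79-fold (1.58 to 5.17) and LPS 2.59-fold (1.55 to 4.59) above PBS, and both calls were kept under every alternative. They were 3.33-fold (1.79 to 6.58) and 2.37-fold (1.27 to 4.71) in cells with no neutrophil-marker UMI. Different clusters made up the class, since the largest of PBS (62 of 161 cells) held 8 LPS cells and the largest of LPS (145 of 334) held 6 PBS cells. Within the cluster led by Klra3, Klra9 and Itga2, found in every library, Tigit was 26.7 CPM in PBS (9.78 to 58.0), 54.8 CPM in PBS+RT (36.1 to 79.8), 46.0 CPM in LPS (23.0 to 82.3) and 33.5 CPM in LPS+RT, with intervals that overlap. A Tigit UMI was found in 8.70% of the natural killer cells of PBS (4.84% to 14.2%) and in 25.8% of those of PBS+RT (18.5% to 34.1%), against 0.248% to 1.11% of general capillary cells. At 2000 UMIs per cell the shares in natural killer cells were 5.00% in PBS (2.03% to 10.0%) and 12.4% in PBS+RT (7.11% to 19.6%). They were 8.20% in LPS (5.43% to 11.8%) and 7.78% in LPS+RT (4.88% to 11.6%), and all these intervals overlap. In CD8+ T cells Tigit was 7.24 CPM in PBS and 20.1 CPM in LPS, 2.77-fold (1.19 to 7.87), a ratio that was inside 2-fold when each cell weighed the same (log2 0.33). Regulatory T cells ranged from 34.4 to 59.9 CPM in the 3 libraries with at least 20 cells and overlapped natural killer cells.

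**Figure D2:**
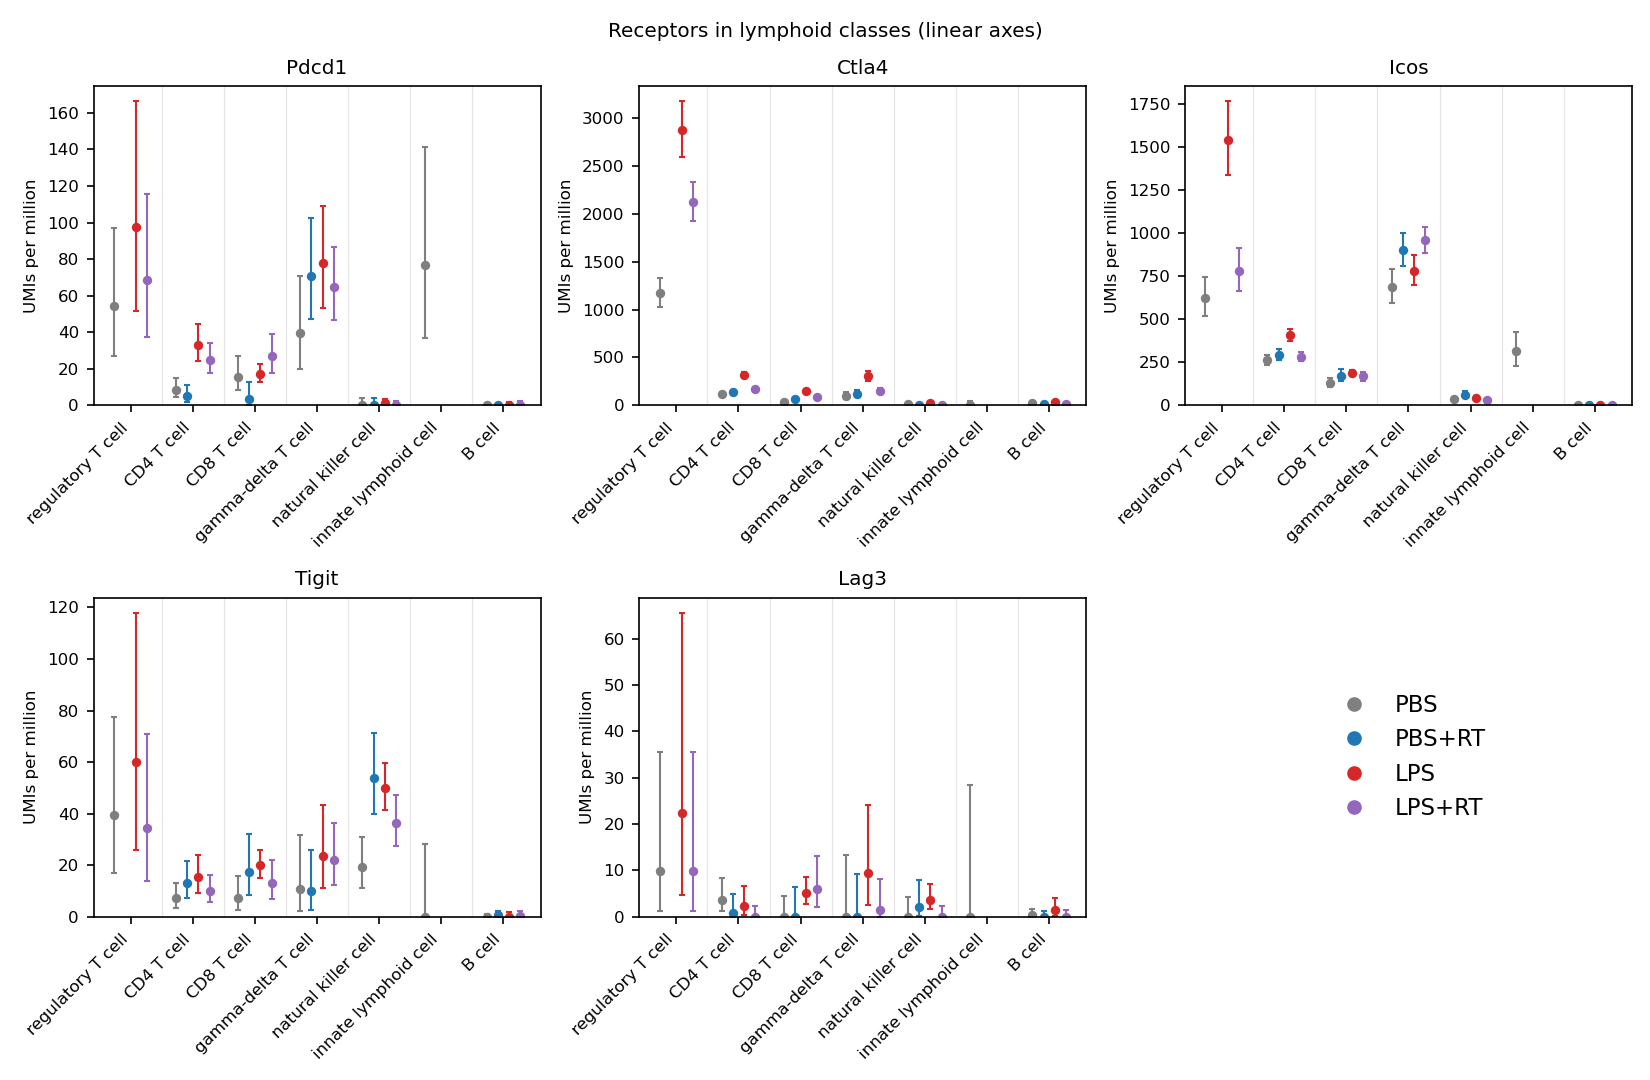
Levels of 5 receptors (CPM, linear axes from 0) in lymphoid classes, with 1 point per library of at least 20 cells and bars for the 95% Poisson interval. Ctla4 in regulatory T cells stands at 1171 (PBS), 2874 (LPS) and 2122 (LPS+RT), and Tigit in natural killer cells is lowest in PBS at 19.3.

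Havcr2 (ENSMUSG00000020399; chr11:46454935-46481255, plus strand) encodes TIM-3, a receptor of T cells that macrophages and dendritic cells also carry, and in these lungs it was a gene of myeloid classes. Nonclassical monocytes, the patrolling class, held 269 CPM in PBS, 333 CPM in PBS+RT, 361 CPM in LPS and 287 CPM in LPS+RT. Conventional dendritic cells held 250, 247 and 333 CPM in PBS, PBS+RT and LPS+RT, overlapping the nonclassical monocytes. Levels in CD4+ T cells were 0 to 4.62 CPM and in CD8+ T cells 2.41 to 7.29 CPM. The CD8+ T cells were called higher in LPS than in PBS (log2 ratio 1.60), with an interval that includes 1. In CD8+ T cells with no neutrophil-marker UMI the levels were 1.76 CPM in PBS (0.0444 to 9.78, 1 UMI) and 18.4 CPM in LPS (10.5 to 29.9, 16 UMIs). In neutrophils Havcr2 was 27.0 CPM in PBS (13.5 to 48.4), 11.9 CPM in PBS+RT (5.42 to 22.5), 131 CPM in LPS (126 to 137) and 111 CPM in LPS+RT (97.8 to 125). Both LPS libraries lay above both PBS libraries, 4.84-fold (2.70 to 9.72) without RT and 9.33-fold (4.84 to 20.6) with RT, although the clusters that made up the neutrophils differed between libraries, as described for Cd274. In interstitial macrophages, the resident class marked by C1q genes, it was 26.3 CPM in PBS, 81.9 CPM in PBS+RT, 149 CPM in LPS and 109 CPM in LPS+RT. The ratios to PBS were 5.65 (3.55 to 9.60) for LPS and 3.11 (1.74 to 5.78) for PBS+RT, and the latter was inside 2-fold when each cell weighed the same (log2 0.33). Alveolar macrophages ranged from 80.5 to 155 CPM with no ratio past 2-fold.

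Lag3 (ENSMUSG00000030124; chr6:124904361-124911705, minus strand), a receptor that binds MHC class II, was sparse in T cells at this depth. CD8+ T cells held none in PBS and PBS+RT, where 3 counts allow up to 3.62 and 5.23 CPM, 5.11 CPM in LPS (2.79 to 8.57) and 5.98 CPM in LPS+RT (2.19 to 13). CD4+ T cells ranged from 0 to 3.57 CPM and gamma-delta T cells from 0 to 9.41 CPM. Regulatory T cells held 9.84, 9.59, 22.4 and 9.82 CPM in PBS, PBS+RT, LPS and LPS+RT, from 1 to 3 UMIs in each library. The highest levels were in plasmacytoid dendritic cells, with 119, 93.5, 113 and 104 CPM in the 4 libraries in 6 to 19 cells each. General capillary endothelium held 10.6 CPM in PBS, 16.5 CPM in PBS+RT, 7.37 CPM in LPS and 11.9 CPM in LPS+RT, and fibroblasts held 16.5, 47.4, 17.4 and 14.8 CPM. In large vessel endothelium the levels were 22.6, 22.3, 18.3 and 7.67 CPM, LPS+RT being 0.343-fold PBS+RT. In aerocytes, the capillary cells of gas exchange, PBS+RT held 8.15 CPM and PBS 3.26 CPM, a ratio of 2.50 (1.36 to 4.84) that was inside 2-fold once cells with a marker of another lineage were left out (log2 0.65). Ptms lies 1975 bases upstream of Lag3 on the same strand and was high in classes with and without Lag3. It was at 382 to 505 CPM in fibroblasts and 377 to 974 CPM in plasmacytoid dendritic cells, but also at 407 to 694 CPM in alveolar macrophages, where Lag3 was 0.844 to 3.28 CPM. In fibroblasts Ptms was 505 CPM in PBS and 432 CPM in PBS+RT, where Lag3 was 16.5 and 47.4 CPM. Its part in the Lag3 counts was not tested.

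Cd274, the gene of PD-L1, showed the largest differences of the 10 genes in LPS against PBS. Its highest level among named classes was in migratory dendritic cells, with 1025 CPM in LPS (931 to 1125, 36 cells) and 601 CPM in LPS+RT (520 to 690, 26 cells), a ratio of 0.586 that is inside 2-fold. The 11 such cells of PBS held 236 CPM and the 8 of PBS+RT 501 CPM. In neutrophils Cd274 was 68.8 CPM in PBS (45.7 to 99.5, 73 cells), 200.1 CPM in PBS+RT (170 to 235, 109 cells), 893 CPM in LPS (879 to 907, 3225 cells) and 402 CPM in LPS+RT (377 to 428, 652 cells). The 4 libraries thus stood in the order PBS, PBS+RT, LPS+RT and LPS with no overlap of intervals. LPS was 13-fold PBS (8.97 to 19.5), PBS+RT was 2.91-fold PBS (1.93 to 4.52) and LPS+RT was 0.450-fold LPS (0.422 to 0.480). LPS+RT against PBS+RT, at 2.01-fold (1.69 to 2.40), stood at the limit of a call, and 5 alternatives put its log2 ratio of 1.01 at 0.65 to 0.99. A Cd274 UMI was found in 15.1% of PBS neutrophils (7.77% to 25.4%) and in 61.7% of LPS neutrophils (60% to 63.4%). With cells thinned to 2000 UMIs the shares were 12.3% and 52.8%. In LPS, neutrophils supplied 45.4% of all Cd274 UMIs while holding 22.1% of all UMIs, whereas in PBS alveolar macrophages supplied 62.9% while holding 25.9%.

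Different clusters made up the neutrophils of the libraries. Of the PBS+RT neutrophils 86 of 109, and of the PBS neutrophils 45 of 73, lay in an immature cluster led by Retnlg, Ngp and Camp, while 1603 of the LPS neutrophils lay in a cluster led by Csf3, Cxcl3 and Cxcl2. Within the immature cluster Cd274 was 48.6 CPM in PBS, 202 CPM in PBS+RT, 484 CPM in LPS and 87.5 CPM in LPS+RT. Among these immature cells PBS+RT was 4.15-fold PBS (2.47 to 7.45) and LPS+RT was 0.181-fold LPS (0.138 to 0.234). LPS+RT was also below PBS+RT among them, at 0.434-fold, which is opposite in direction to the ratio over all neutrophils. In the cluster led by Csf3, Cxcl3 and Cxcl2, Cd274 was 555 CPM in LPS and 660 CPM in LPS+RT. A cluster of 536 LPS cells and 16 LPS+RT cells, led by Rsad2, Cxcl10 and Slfn4 with Cd274 itself among its 10 leading genes, held 2406 CPM in LPS. LPS+RT was below LPS within the immature cluster and not within the Csf3 cluster. Further neutrophil clusters, of 578 and 311 LPS cells and of 201 and 131 LPS+RT cells, are not described here. The part of cluster make-up in the ratio over all neutrophils was not tested.

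In monocytes and in tissue macrophages other than alveolar ones Cd274 was also highest in LPS, with LPS+RT between LPS and the PBS libraries. Nonclassical monocytes held 135 CPM in PBS, 164 CPM in PBS+RT, 647 CPM in LPS and 216 CPM in LPS+RT, so LPS was 4.78-fold PBS and LPS+RT was 0.334-fold LPS. Classical monocytes held 5.98 CPM in PBS (2.40 to 12.3), 2.72 CPM in PBS+RT (0.560 to 7.94), 105 CPM in LPS (89.8 to 123) and 18.7 CPM in LPS+RT (12.2 to 27.4). The ratio of LPS to PBS, 17.6-fold (8.36 to 44.5), was the highest of any class measured for the gene. Interstitial macrophages held 14.6, 25.2, 170 and 45.3 CPM in PBS, PBS+RT, LPS and LPS+RT. In interstitial macrophages with no neutrophil-marker UMI, however, LPS held 37.6 CPM (12.2 to 87.7) from 5 UMIs in 26 cells. LPS+RT held 53.0 CPM there (37.5 to 72.7, 59 cells). The ratio of LPS+RT to LPS thus turned from 0.266 to 1.41, with level intervals that overlap in these cells. The summed neutrophil markers in interstitial macrophages were 196, 132, 511 and 144 CPM in PBS, PBS+RT, LPS and LPS+RT, and their part in the interstitial result was not tested further. Nonclassical monocytes with no such UMI kept 157 CPM in PBS and 453 CPM in LPS, a ratio of 2.89 (1.59 to 5.62). Inflammatory macrophages, the Nos2 and Arg1 expressing class found with LPS, held 544 CPM in LPS and 281 CPM in LPS+RT, just inside 2-fold at a ratio of 0.515. Alveolar macrophages stood apart, at 130 CPM in PBS, 192 CPM in PBS+RT, 160 CPM in LPS and 103 CPM in LPS+RT with no ratio past 2-fold.

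Endothelium carried Cd274 at low levels in 3 libraries and at higher levels in LPS alone. General capillary endothelium held 14.0 CPM in PBS (11.8 to 16.5, 2537 cells), 17.4 CPM in PBS+RT (15.4 to 19.7, 2070 cells), 90.8 CPM in LPS (82.4 to 99.8, 1211 cells) and 18.6 CPM in LPS+RT (15.9 to 21.5, 2720 cells). LPS was 6.49-fold PBS (5.35 to 7.91), LPS+RT was 0.205-fold LPS (0.171 to 0.244), and LPS+RT was 1.07-fold PBS+RT (0.876 to 1.30). Each of 5 clusters of the class showed the difference, with ratios of LPS to PBS from 3.88 to 8.14 and of LPS+RT to LPS from 0.141 to 0.378. Aerocytes held 30.9, 22.4, 123 and 24.0 CPM in PBS, PBS+RT, LPS and LPS+RT, with LPS 3.99-fold PBS. Large vessel endothelium held 10.8, 11.2, 156 and 14.2 CPM, the LPS value coming from 21 cells. Lymphatic endothelium held 16.5, 9.04, 84.1 and 6.46 CPM, and its LPS to PBS log2 ratio of 2.35 became 0.19 when each cell weighed the same. Summed neutrophil markers were 719 CPM in PBS and 2758 CPM in LPS in lymphatic endothelium, and their part in that result was not tested. In general capillary cells with no neutrophil-marker UMI Cd274 was 15.5, 16.9, 89.9 and 19.8 CPM, nearly the levels in all cells of the class, and LPS remained 5.79-fold PBS (4.51 to 7.45).

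Lymphocytes held Cd274 at lower levels than neutrophils, with the LPS library highest again. CD4+ T cells held 21.4, 32.1, 95.6 and 47.2 CPM in PBS, PBS+RT, LPS and LPS+RT, LPS being 4.46-fold PBS. CD8+ T cells held 41.0, 22.6, 108 and 44.8 CPM, and gamma-delta T cells 39.6, 53.1, 132 and 54.3 CPM. B cells held 89.3, 77.6, 186 and 98.0 CPM, and their ratio of LPS to PBS, 2.08, was 1.61 (1.29 to 1.98) in cells with no neutrophil-marker UMI. Natural killer cells, at 47.7, 50.6, 83.0 and 61.1 CPM, passed 2-fold in no comparison of all their cells. In CD4+ T cells with no neutrophil-marker UMI LPS was 6.65-fold PBS, and in CD8+ T cells 2.68-fold.

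**Figure D3:**
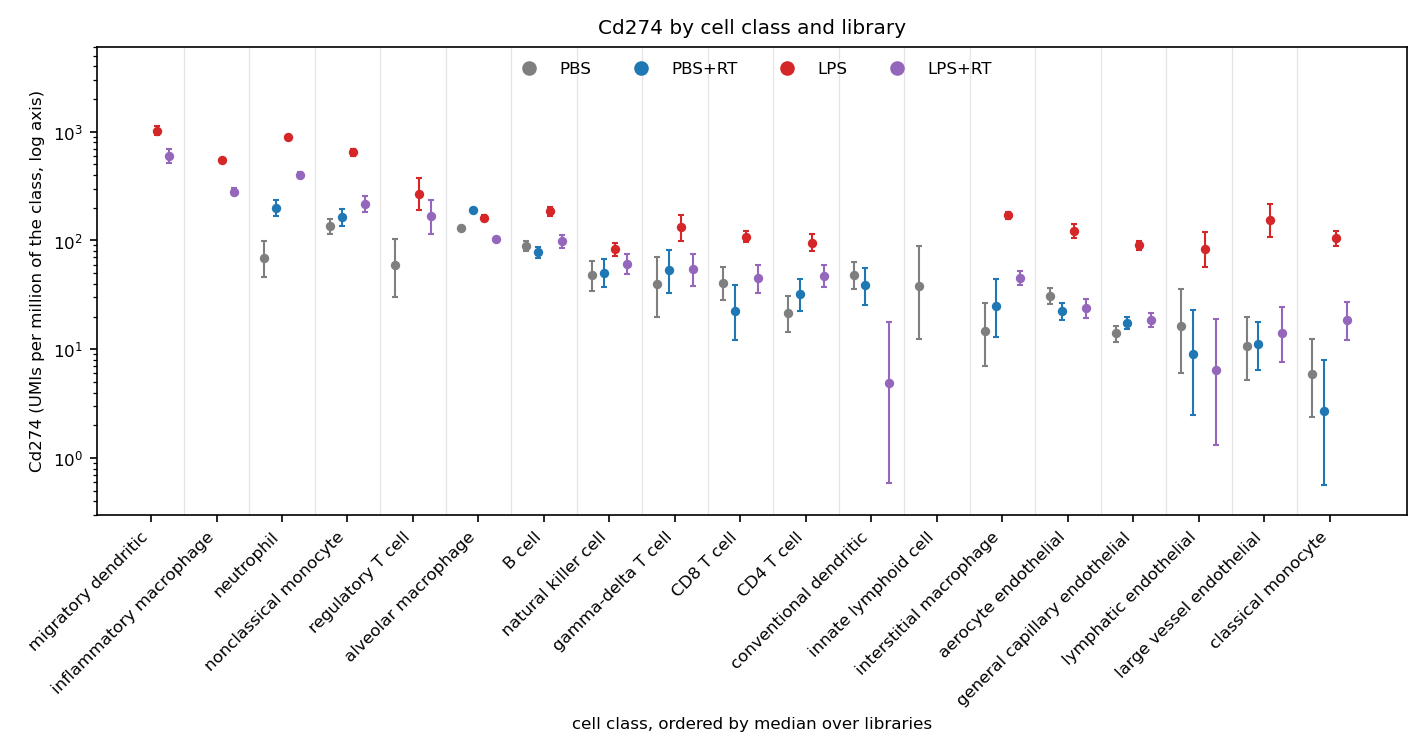
Cd274 (CPM, log axis) in each cell class with at least 20 cells, ordered by the median over libraries, with 1 point per library and bars for the 95% Poisson interval. LPS is the highest library in neutrophils (893), nonclassical monocytes (647), general capillary endothelium (90.8) and most other classes, and alveolar macrophages are an exception.

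**Figure D4:**
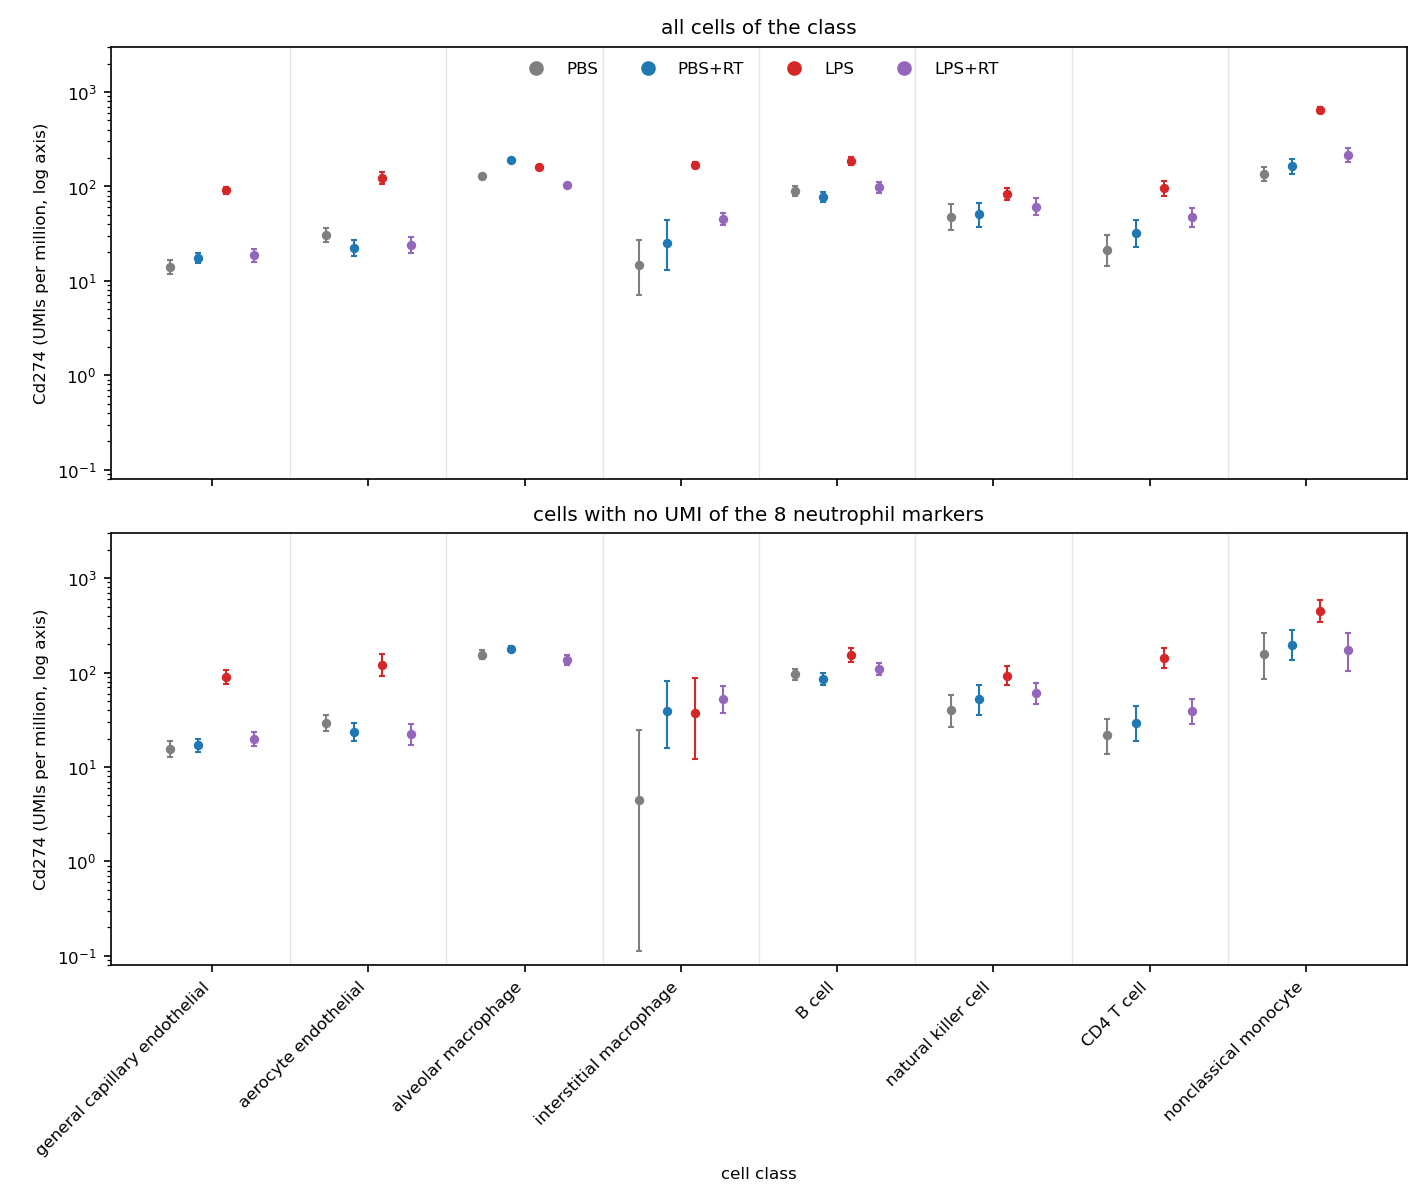
Cd274 (CPM, log axis) in 8 classes, over all cells (top) and over cells with no UMI of 8 neutrophil markers (bottom), with 1 point per library of at least 10 cells and bars for the 95% Poisson interval. General capillary endothelium stands at 14.0 and 90.8 in PBS and LPS in the top panel and at 15.5 and 89.9 in the bottom panel. Interstitial macrophages of LPS stand at 170 and 37.6, the latter from 5 UMIs in 26 cells.

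Pdcd1lg2, the gene of the second PD-1 ligand, had its highest level among named classes in the migratory dendritic cells of LPS, the mature Ccr7-expressing dendritic class that carries antigen to lymph nodes. These cells held 318 CPM in LPS (267 to 376, 36 cells) and 106 CPM in LPS+RT (73.6 to 147, 26 cells), a ratio of 0.332. The 11 cells of PBS held 20.8 CPM and the 8 cells of PBS+RT 7.26 CPM, too few cells for a ratio. In neutrophils Pdcd1lg2 was 9.83 CPM in PBS, 18.4 CPM in PBS+RT, 91.3 CPM in LPS and 104 CPM in LPS+RT. Both LPS libraries thus lay above both PBS libraries, 9.29-fold (3.62 to 34.1) and 5.62-fold (3.29 to 10.4), and LPS+RT was not below LPS as it was for Cd274. In CD8+ T cells the levels were 7.24, 3.48, 37.6 and 15.9 CPM in PBS, PBS+RT, LPS and LPS+RT, with LPS 5.19-fold PBS (2.30 to 14.5). In conventional dendritic cells Pdcd1lg2 was 30.4 CPM in PBS+RT and 2.45 CPM in LPS+RT, and Cd274 was 38.7 and 4.89 CPM, in 29 and 21 cells. Both ratios turned direction with each cell named by its own marker score, to log2 ratios of 1.93 for Pdcd1lg2 and 1.70 for Cd274. General capillary endothelium held Pdcd1lg2 at 0.202 to 2.32 CPM, whereas it held Cd274 at up to 90.8 CPM.

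Cd80 (ENSMUSG00000075122; chr16:38455561-38496335, plus strand), a ligand of CD28 and CTLA-4, was a gene of dendritic cells and neutrophils, and was also found in macrophages and monocytes. In neutrophils it was 253 CPM in PBS (207 to 307), 386 CPM in PBS+RT (343 to 433), 768 CPM in LPS (755 to 782) and 751 CPM in LPS+RT (717 to 786). LPS was 3.03-fold PBS (2.50 to 3.72) under every alternative, and LPS+RT was 0.977-fold LPS (0.930 to 1.03). The same neutrophils held Cd274 at 893 and 402 CPM in these libraries, and the difference between the genes was not tested. Within the immature neutrophil cluster Cd80 was 149, 391, 388 and 309 CPM in PBS, PBS+RT, LPS and LPS+RT, and within the Csf3 cluster it was 889 CPM in LPS and 1070 CPM in LPS+RT. In classical monocytes it was 89.7 CPM in PBS, 233 CPM in PBS+RT, 109 CPM in LPS and 141 CPM in LPS+RT, so that PBS+RT was the highest library, 2.59-fold PBS (2.06 to 3.29). That ratio had no value in cells with no neutrophil-marker UMI, which were too few in PBS+RT. In interstitial macrophages with no neutrophil-marker UMI, Cd80 was 103 CPM in PBS (65.2 to 154) and 174 CPM in PBS+RT (118 to 248). This difference is inside 2-fold. Among these cells LPS held 45.1 CPM (16.6 to 98.2, 6 UMIs in 26 cells) and LPS+RT 174 CPM (145 to 208), level with PBS+RT. Alveolar macrophages with no such UMI held 88.7, 150 and 99.6 CPM in PBS, PBS+RT and LPS+RT. Inflammatory macrophages with no such UMI held 190 CPM in LPS and 138 CPM in LPS+RT. Migratory dendritic cells held 711 CPM in LPS and 534 CPM in LPS+RT, and conventional dendritic cells held 302, 554 and 306 CPM in PBS, PBS+RT and LPS+RT. B cells held 33.0 CPM in PBS+RT and 13.3 CPM in LPS+RT, a ratio of 0.401 that was inside 2-fold with each cell weighing the same, with cells named by their own score and with doublets kept. General capillary endothelium held 2.60, 1.48, 8.43 and 4.35 CPM in PBS, PBS+RT, LPS and LPS+RT, and its LPS to PBS ratio of 3.24 was at a log2 value of 0.76 in cells with no neutrophil-marker UMI.

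Cd86 (ENSMUSG00000022901; chr16:36603869-36666081, minus strand), the other ligand of CD28 and CTLA-4, was shared by migratory dendritic cells, interstitial macrophages, conventional dendritic cells, B cells and monocytes, whose ranges overlapped from one to the next. In classical monocytes it was 306 CPM in PBS (275 to 339), 823 CPM in PBS+RT (771 to 879), 540 CPM in LPS (504 to 578) and 317 CPM in LPS+RT (289 to 348). PBS+RT was 2.69-fold PBS (2.38 to 3.05) under every alternative, and LPS+RT was 0.385-fold PBS+RT. In interstitial macrophages Cd86 was 815, 1696, 894 and 846 CPM, and again PBS+RT stood alone above the others. Its ratio to PBS, 2.08 (1.87 to 2.32), was inside 2-fold when each cell weighed the same (log2 0.82) and with scaling by the median ratio of genes (0.81). The share of interstitial macrophages with a Cd86 UMI was 71.4% in PBS (59.4% to 81.6%) and 72.7% in PBS+RT (57.2% to 85.0%). Nonclassical monocytes held 340, 642, 736 and 330 CPM, with LPS 2.16-fold PBS and PBS+RT 1.89-fold PBS.

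Alveolar macrophages, the lipid-clearing cells of the air space, held less Cd86 in both LPS libraries, at 111 and 112 CPM in PBS and PBS+RT against 52.9 and 43.9 CPM in LPS and LPS+RT. The ratios were 0.479 without RT and 0.390 with RT. The latter was at a log2 ratio of -0.89 in cells with no neutrophil-marker UMI. Most alveolar macrophages of PBS and PBS+RT (562 of 636 and 671 of 688) lay in 1 cluster, and most of LPS and LPS+RT (129 of 186 and 527 of 815) lay in another. In aerocytes Cd86 was 4.35, 2.46, 31.3 and 12.1 CPM in PBS, PBS+RT, LPS and LPS+RT, but a Cd86 UMI was found in 5.5% of the LPS aerocytes (2.88% to 9.42%). Summed neutrophil markers in aerocytes were 49.4, 36.6, 386 and 79.5 CPM in the same order, and the 7.19-fold ratio of LPS to PBS was kept under every alternative that gave a value.

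**Figure D5:**
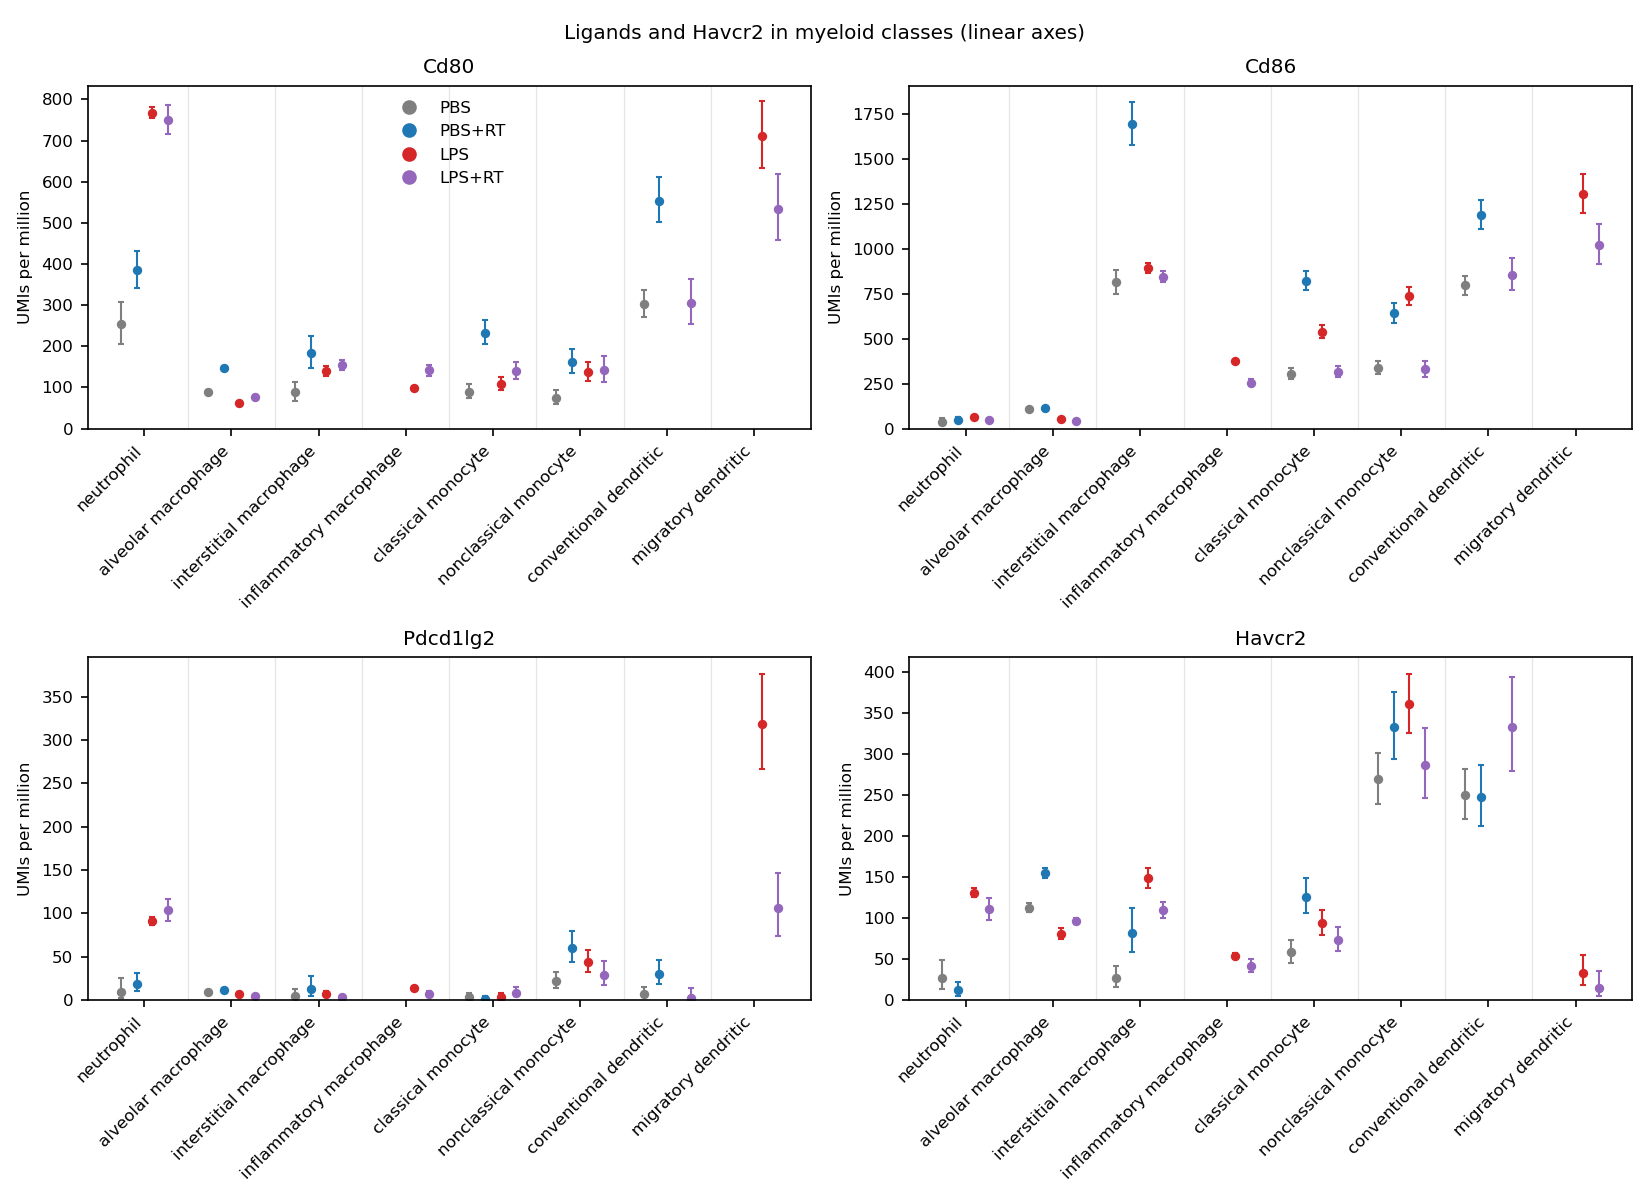
Levels of Cd80, Cd86, Pdcd1lg2 and Havcr2 (CPM, linear axes from 0) in myeloid classes, with 1 point per library of at least 20 cells and bars for the 95% Poisson interval. Cd86 is highest in PBS+RT in classical monocytes (823) and interstitial macrophages (1696), and Pdcd1lg2 in migratory dendritic cells is 318 in LPS and 106 in LPS+RT.

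A wider list of 41 checkpoint and costimulation genes was read in the same way as the 10. In LPS against PBS 42 of 300 pairs were higher and 30 lower, where 8.42% and 7.21% of all pairs were, with a median log2 ratio of -0.01. In LPS+RT against PBS+RT 30 of 302 were higher and 17 lower, where 5.97% and 6.93% of all pairs were. In PBS+RT against PBS 14 of 278 were higher and 7 lower (7.21% and 4.96% of all pairs), and in LPS+RT against LPS 21 of 359 were higher and 33 lower (4.33% and 5.92%). Cd47, the signal that restrains phagocytosis, was 359 CPM in PBS and 743 CPM in LPS in neutrophils, a ratio of 2.07 (1.76 to 2.45). Vsir, the gene of the checkpoint protein VISTA, was the reverse in neutrophils, at 327 CPM in PBS and 149 CPM in LPS. Cd40, the receptor by which T cells license antigen-presenting cells, was 95.7 CPM in LPS and 20.1 CPM in LPS+RT in inflammatory macrophages, a ratio of 0.210 (0.159 to 0.272). Tnfrsf9, the costimulatory receptor 4-1BB, was 260 CPM in LPS and 123 CPM in LPS+RT in natural killer cells. Lgals3, the gene of galectin-3, was 468 CPM in PBS, 1004 CPM in PBS+RT and 1015 CPM in LPS in interstitial macrophages. Cd96, which shares a ligand family with TIGIT, was 49.3 CPM in PBS and 106 CPM in PBS+RT in CD4+ T cells.

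The genes whose levels were most like each of the 10 over 59 profiles of class and library are given as a description, since profiles of 1 library share its depth. Ctla4 was closest to Slamf1 (Pearson r 0.944), Bcl11b and 5830468F06Rik. Icos was closest to Camk4 (r 0.975), Lat and Cd28, and Pdcd1 to Cxcr6 (r 0.939), Actn2 and Sit1. Tigit was closest to Il2rb and Fasl (both r 0.952) and Cysltr2, and Havcr2 to Cd300c2 (r 0.932), Nlrp1b and E230029C05Rik. Cd80 was closest to Nlrp3 (r 0.941), Il1b and Spi1, and Cd86 to Cd83 (r 0.946), Cd180 and Ly86. Lag3 was closest to Mindy4 (r 0.886), Triqk and Hoxa3. The PD-1 ligands had the weakest likenesses of the 10, with Gm36043 (r 0.771), Lcp1 and Bcl2a1b for Cd274 and Wwp2 (r 0.829), Mirt1 and Safb2 for Pdcd1lg2.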

How the data were processed

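Single-cell 3′ RNA libraries (10x kit version 3.1, target of 10000 cells) were aligned to mm10 with Cell Ranger 7, per the submitters' processing notes, and the matrices hold UMI counts per gene and barcode as deposited by the authors (version 7.0.1, per the file headers). Whether intronic reads were counted is not given in the sources used here, and cell barcodes were not analysed, so barcodes shared between libraries were not counted. The filter asked for 500 UMIs and 200 genes per cell or more, and for no more than 10% of UMIs from mitochondria. A single doublet threshold served all libraries, set after seeing that the automatic one failed in LPS, and 124 to 203 cells per library were removed. Cells were clustered (scanpy 1.11.5, Leiden, 2000 variable genes, 30 components, resolution 1.5) with the 10 genes left out, and clusters were named where at least 3 markers of a class were found in at least 10% of cells. Of the named classes, 2 clusters with neutrophil markers were left unnamed after the data were seen. UMIs were summed per class and library, with exact Poisson intervals for levels, Clopper-Pearson intervals for shares and exact conditional binomial intervals for ratios (scipy 1.17.1). These cover counting error only, and no test between groups was possible with 1 library each. A floor of 3 counts stood in for 0. The ratio code was tested on simulated data.

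The text names all 10 genes, the 3 genes most like each (Pearson correlation of log2(CPM + 10)), and by UMIs the leading pairs of the wider list. One further list is not reported here. The genes and lists were chosen with earlier results of these data known. The alternatives were other scalings, cell weights and UMI minimums (50 and 5 per gene, 1500 per cell). Further ones were doublets kept, cells named singly and cells with foreign markers left out. Those on neutrophil-marker UMIs, on gene span and on the 2 unnamed clusters were chosen after seeing the data. T cells gated on UMIs and thinning to 2000 UMIs served only as checks of the leading class of each gene. They did not enter the statements on which calls were kept. Positions come from GENCODE M21 and promoters from RefSeq (GRCm38.p6).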

Additional observations from a re-analysis of the deposited data

Results flagged for a closer look

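Cd274 in neutrophils moved in opposite directions with RT: PBS+RT was 2.91-fold PBS, whereas LPS+RT was 0.45-fold LPS. Both intervals leave out 1 (1.93 to 4.52 and 0.422 to 0.480). The difference between these ratios was not tested, since each group is 1 library. Cells of the immature neutrophil cluster showed the same pair of directions, with 48.6, 202, 484 and 87.5 CPM in PBS, PBS+RT, LPS and LPS+RT. In the cluster led by Csf3, Cxcl3 and Cxcl2, however, LPS+RT was not below LPS. The cluster led by Rsad2, Cxcl10 and Slfn4, high in Cd274, held few LPS+RT cells. The part of cluster make-up in the ratios over all neutrophils was not tested.

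Signal of the ligand genes was also found in a cluster of 650 cells that carries no class name and enters no comparison. It held 368 cells of LPS, 278 of LPS+RT, 4 of PBS and 0 of PBS+RT, and was led by Rab15, Mreg and Enthd1 with Gpnmb among its 10 leading genes. Cd274 stood there at 1410 CPM in LPS and 1050 CPM in LPS+RT, above the 1025 and 601 CPM of migratory dendritic cells and the 893 and 402 CPM of neutrophils. Pdcd1lg2 stood at 351 CPM in LPS and 405 CPM in LPS+RT, close to or above the 318 and 106 CPM of migratory dendritic cells. Cd80 stood at 432 CPM in LPS and 403 CPM in LPS+RT. Markers of more than 1 lineage were present, with S100a8 at 1127 CPM, Csf3r at 280 CPM and Cd68 at 406 CPM in LPS.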

How the results depend on the processing

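No paired analysis was possible because each group is 1 library and carries no replicate number to pair, so no replicate could be left out either. Few UMIs per gene and class limit the receptors most. The counts of calls moved more than 1.5 times as follows. In LPS against PBS, the 36 pairs at least 2-fold higher became 66 with each cell named by its own marker score and 18 with neutrophil-marker cells left out, and the 2 lower became 1 with cells of another lineage's markers left out, 1 at 50 UMIs per gene and 6 at 5 UMIs. In LPS+RT against PBS+RT, the 13 higher became 37 by own score, 20 with doublets kept, 6 at 50 UMIs and 24 at 5 UMIs, and the 14 lower became 8 by own score, 8 without other-lineage cells, 9 at 50 UMIs and 6 without neutrophil-marker cells. In PBS+RT against PBS, the 12 higher became 6 without neutrophil-marker cells, and the 3 lower became 5 with median-ratio scaling, 1 at 50 UMIs, 13 at 5 UMIs, 6 without neutrophil-marker cells and 6 with ratios centred on genes of similar span. In LPS+RT against LPS, the 3 higher became 6 by own score, 1 at 50 UMIs and 11 at 5 UMIs, and the 23 lower became 38 by own score and 13 without neutrophil-marker cells. The leading class was the same for 7 to 8 of the 10 genes, but for 4 without other-lineage cells, where migratory dendritic cells fell under 20 cells. Log2 ratios that turned direction were, by own score, Ctla4 in regulatory T cells in LPS against PBS (-0.11), Cd274 (1.70) and Pdcd1lg2 (1.93) in conventional dendritic cells in LPS+RT against PBS+RT, and Pdcd1lg2 in inflammatory macrophages (0.71) and Cd86 in aerocytes (0.18) in LPS+RT against LPS. Without neutrophil-marker cells, Pdcd1lg2 in alveolar macrophages in LPS+RT against PBS+RT (0.18) and Cd274 in interstitial macrophages in LPS+RT against LPS (0.50) turned, and with doublets kept Icos in alveolar macrophages in LPS+RT against PBS+RT did (-0.47). Thresholds on UMIs change which genes are counted, and the cause of the other changes was not tested. Of the 106 calls, 49 of the 57 that could be measured were kept without neutrophil-marker cells and 73 of 103 by own score.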

Other observations

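A dendritic cluster of 23 LPS cells and 1 LPS+RT cell, led by Rsad2, Cxcl9 and Ifit2, had too few markers for a name and held Cd274 at 751 CPM in LPS. The clusters with nonclassical monocyte and aerocyte genes that were left without a name because they also carried neutrophil markers held Cd274 at 756 and 730 CPM in LPS.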
